A study of Mus musculus with 12 samples.

Results

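The AP-1 genes and related immediate early factors make up a set of 10 genes: the Fos family (Fos, Fosb, Fosl1 and Fosl2), the Jun family (Jun, Junb and Jund) and 3 further immediate early factors (Atf3, Egr1 and Maff). They are described across all libraries of the series. They were taken by symbol from both expression tables, which list 52636 genes, and all 10 were found and passed the filter on low values in both cell types. The samples are 12 bulk RNA-seq libraries in 4 groups of 3. Murine airway SMCs were commercial C57BL/6 cells (Cell Biologics C57-6082), primary by the study's methods, whose source is given as tracheal smooth muscle. They received either scrambled RNA (Scr) or siRNA against Klf4 (siKlf4), the transcript of a zinc finger factor of the KLF family. Lung PDGFR-β+ cells of 12-week-old C57BL/6 mice received the same pair of treatments. According to the study's methods these cells were sorted by their Zs reporter from tamoxifen-induced Pdgfrb-CreERT2, ROSA26R(Zs/+) lungs, so the reporter marks cells in which the Pdgfrb-driven Cre was active at induction. All groups shared a brief serum starvation before transfection and later culture in supplemented smooth muscle medium with serum and growth factors. By the study's knockdown methods this culture lasted days before cells were collected. The values are thus levels days after transfection, not minutes after a stimulus. The study asked how Klf4 knockdown changes transcription in either cell type, and 8 of the 10 genes (all but Atf3 and Egr1) stand on its list of factors predicted to bind Ccl2.

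AP-1 is a dimer of basic leucine zipper proteins. A Fos protein cannot pair with itself and binds DNA together with a Jun protein, whereas Jun proteins also pair with each other, and the dimers bind the TRE element or, with ATF partners, the CRE element. Fos, Fosb, Jun, Junb, Atf3, Egr1 and Maff are immediate early genes: serum, growth factors or stress raise them within minutes through MAP kinases acting on SRF, its ternary complex factors and CREB, and most of the transcripts are short-lived. In mesenchymal cells AP-1 is known for driving proteases, cytokines and growth-related genes.

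The values are transcripts per 1000000 (TPM), scaled by transcript length to the same total in each library, so they keep no depth and counting error cannot be given. Between 20590 and 21780 genes per library were above 0. Klf4 was 89.6 to 96.3 TPM in the Scr SMCs and 16.3 to 26.5 TPM in the siKlf4 SMCs, which left 21.9% of the Scr mean. In PDGFR-β+ cells it was 134.5 to 146.1 TPM under Scr and 12.3 to 13.8 TPM after siKlf4, which left 9.16%. One Scr and 1 siKlf4 library of the SMCs carry no replicate number (unnumbered below), and these 2 stood apart from the 4 numbered ones on the second principal component, which held 16.5% of the variance of the SMCs. Smooth muscle markers were present in both cell types, with Acta2 at 1031 to 1567 TPM in Scr SMCs and 3969 to 4594 TPM in Scr PDGFR-β+ cells. Myocd, the coactivator of contractile genes, was however under 1 TPM in every library. The Scr SMCs also held Pdgfrb (213.3 to 216.0 TPM), Col1a1 and Pdgfra. Pdgfra was at 357.4 to 510.7 TPM there and at 150.9 to 180.4 TPM in Scr PDGFR-β+ cells. Pdgfrb, Col1a1, Cspg4 and Rgs5 had the higher Scr mean in PDGFR-β+ cells. Of the 5 mesenchymal markers of PDGFR-β+ cells, Pdgfrb (−0.41 on the log2 scale), Col1a1 (−0.63) and Cspg4 (−1.97) fell with siKlf4 in PDGFR-β+ cells. Pdgfra (0.09, adjusted p = 0.495 in limma) and Rgs5 were not called there. The sum, most of it Col1a1, went from 2395 to 2784 TPM to 1586 to 2138 TPM. In SMCs only Cspg4 fell (−0.53), with sums of 1629 to 1807 TPM and 1420 to 1521 TPM. In SMCs 4 of the 6 smooth muscle markers rose with siKlf4, and their summed level went from 1384 to 2173 TPM to 3240 to 3987 TPM. Most of this sum was Acta2. Des lay lower there without passing (−0.36, adjusted p = 0.0884 in limma), and Myocd was not tested. In PDGFR-β+ cells 1 rose (Myh11) and 3 fell, and the sum went from 5439 to 6279 TPM to 4543 to 4843 TPM. Over all genes tested, 28.5% were called in SMCs and 40.6% in PDGFR-β+ cells. Of the 5 macrophage and leukocyte markers, Lyz2 and Csf1r fell in PDGFR-β+ cells. Cd68 did not fall there, with means of 7.56 TPM under Scr and 8.77 TPM after siKlf4 (log2 fold change 0.20, adjusted p = 0.29 in limma). The sum of the 5 went from 28.6 to 29.9 TPM to 18.7 to 22.8 TPM, whereas Ptprc was at most 0.27 TPM and Adgre1 at most 0.10 TPM in every library. In SMCs that sum was 4.68 to 7.19 TPM under Scr and 4.44 to 6.51 TPM after siKlf4. The 4 endothelial markers summed to 14.1 to 18.4 TPM in PDGFR-β+ cells, most of it Kdr, while Tek rose there (0.60, adjusted p = 0.0212 in limma, at 1.17 to 3.14 TPM), and went from 1.28 to 2.51 TPM to 3.37 to 3.87 TPM in SMCs, with Pecam1 and Cdh5 under 0.5 TPM throughout. The 4 epithelial markers summed to at most 0.32 TPM, with Sftpc at 0. The part of these marker changes in the results below was not tested. In bulk RNA, fewer cells of a type and less RNA per cell cannot be told apart.

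Under Scr, the order of the 10 genes was led by Fosl2 and Jund in both cell types. Fosl2, the Fra-2 protein gene, was at 182.8, 171.9 and 164.1 TPM in SMCs (the unnumbered library first, then replicates 2 and 3, as in all lists of SMC values) and at 164.6, 158.1 and 156.6 TPM in PDGFR-β+ cells (replicates 1 to 3). It lay above 93.3% of the genes tested in SMCs and 92.6% of those in PDGFR-β+ cells, and no other gene of the 10 reached its range in either. In SMCs it was followed by Jund (125.4 ± 20.4 TPM, mean ± SD, n = 3) and Junb (120.6 ± 23.8), whose ranges overlapped, then by Jun (66.1 ± 3.8) and Maff (60.1 ± 14.3), which overlapped, and by Fos (28.8 ± 9.1), Fosl1 (19.8 ± 4.3) and Egr1 (16.6 ± 3.6), of which each overlapped the next. Fosb (2.79 ± 0.72) and Atf3 (1.49 ± 0.57) stood at the foot. In PDGFR-β+ cells Jund (116.7 ± 4.8) and Maff (115.8 ± 12.4) overlapped, followed by Junb (59.4 ± 4.0), then Jun (42.4 ± 4.7) and Fosl1 (39.5 ± 10.9), which overlapped, then Egr1 (29.0 ± 1.2), Fos (8.06 ± 0.73), Atf3 (3.71 ± 0.50) and Fosb (1.22 ± 0.50). The inducible genes Fosb and Atf3 were thus near the foot of all genes tested, with 12.8% and 4.97% of genes below them in SMCs and 4.83% and 18.8% in PDGFR-β+ cells.

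The Scr levels of the cell types split the genes. The tables were deposited separately by cell type, so this is a description and was not tested. The mean was higher in SMCs for Fos (3.57-fold), Fosb (2.28-fold), Junb (2.03-fold) and Jun (1.56-fold), with no overlap between the 3 libraries of each kind. It was higher in PDGFR-β+ cells for Atf3 (2.50-fold), Fosl1 (2.00-fold), Maff (1.93-fold) and Egr1 (1.75-fold), again with no overlap. Of the 13032 genes tested in both cell types, 57.5% did not overlap in this way. The ranges of Fosl2 and Jund overlapped, with ratios of 1.08 and 1.07. Among the Fos genes, then, Fos and Fosl1 were ordered oppositely in the 2 cell types: Fos had the higher mean in SMCs and Fosl1 in PDGFR-β+ cells, although in SMCs their ranges overlapped.

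**Figure D1:**
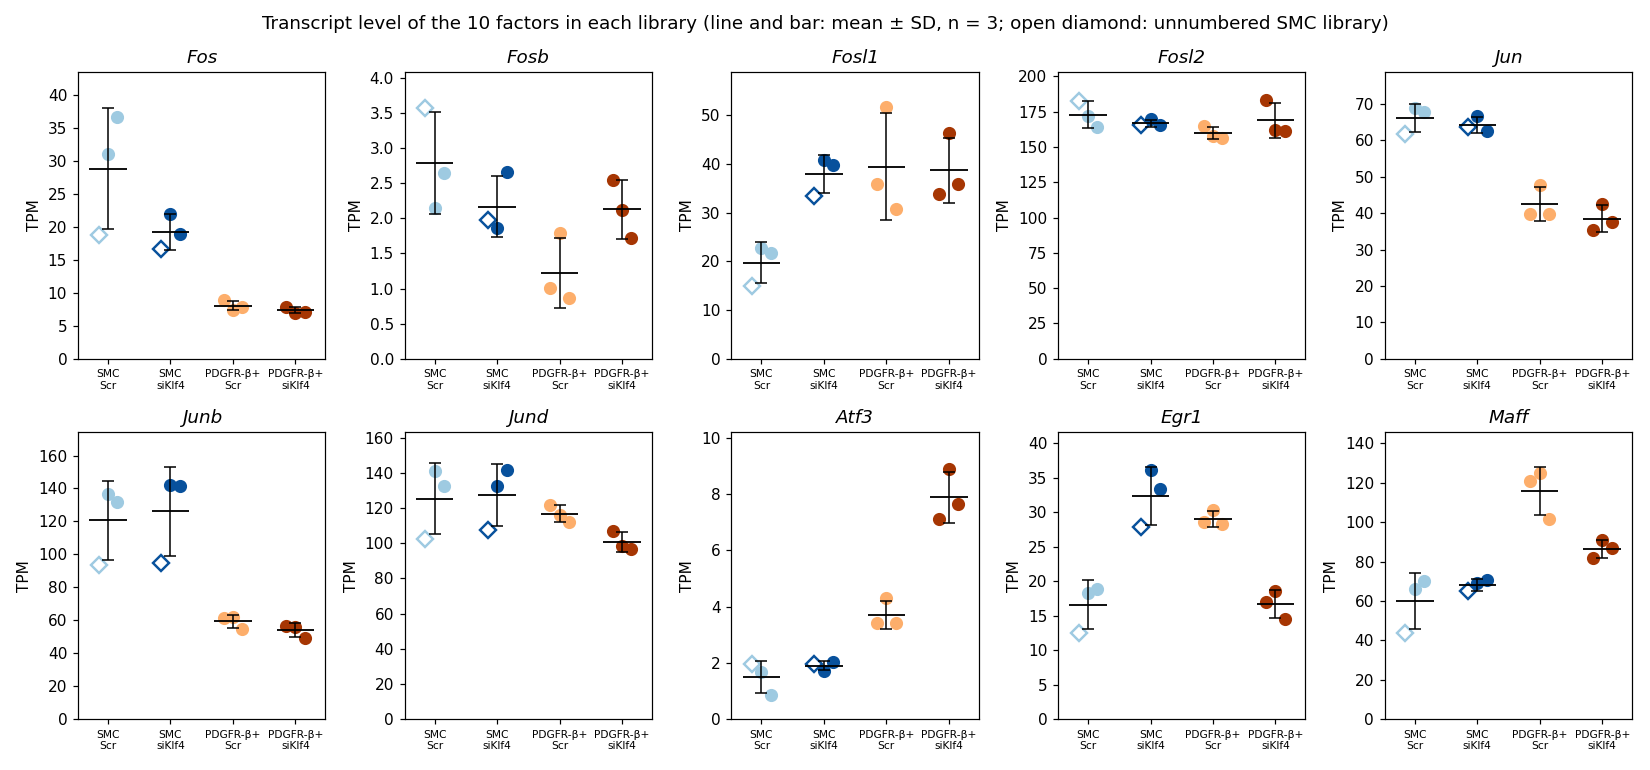
TPM (linear axis from 0) of each of the 10 genes in the 12 libraries, by cell type and siRNA. Points are libraries, open diamonds are the unnumbered SMC libraries, and lines with bars are the mean ± SD of 3. Egr1 of siKlf4 stands above Scr in SMCs and below it in PDGFR-β+ cells, Fosl1 is higher with siKlf4 in SMCs, and Atf3 is higher with siKlf4 in PDGFR-β+ cells.

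In SMCs, siKlf4 raised 2 of the 10 genes, Fosl1 and Egr1, and lowered none. Among all 13709 genes tested in SMCs, 28.5% were called at an adjusted p of 0.05 (limma with Benjamini-Hochberg adjustment over all genes), 15.6% higher and 12.9% lower, so 2 of 10 genes is no excess over this background. The median log2 fold change of the 10 genes was 0.04, against 0.02 over all genes tested. Scr and siKlf4 libraries did not overlap in 2 of the 10, where 47.1% of all genes tested did not. Fold changes here and below are log2 ratios of TPM + 1, which understates changes of genes at a few TPM, and each is given with its standard error (SE) or its 95% interval.

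Fosl1 encodes Fra-1, a Fos protein without a classical transactivation domain that is itself a target of AP-1. It was at 14.9, 22.8 and 21.7 TPM in Scr SMCs and at 33.5, 40.8 and 39.7 TPM in siKlf4 SMCs. Each siKlf4 library lay above every Scr library, and the unnumbered library was the lowest of its group under both treatments. This is a log2 fold change of 0.93 (SE 0.17), with an adjusted p of 0.00803 in limma. Fosl1 lies on the plus strand of chr19:5447547-5455946 (GRCm38, GENCODE M21) and overlaps Ccdc85b on the opposite strand. Whether the counting used strand is not given in the sources used here, and Ccdc85b itself changed by 0.05 in SMCs, with an adjusted p of 0.744 in limma.

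Egr1 encodes a zinc finger factor that is induced by serum through SRF and binds GC-rich sites. Its level was 12.4, 18.3 and 18.9 TPM in Scr SMCs and 27.8, 36.0 and 33.3 TPM in siKlf4 SMCs. Again the groups did not overlap, with the unnumbered library lowest in both. This gave a log2 fold change of 0.94 (SE 0.17), with an adjusted p of 0.00863 in limma. For both genes the two-sided exact permutation p was 0.1, the smallest that 3 libraries against 3 allow. Both calls held in the numbered libraries alone and without each library in turn.

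Fos itself was at 18.8, 30.9 and 36.7 TPM in Scr SMCs and at 16.6, 22.0 and 18.9 TPM in siKlf4 SMCs. The 2 numbered Scr libraries lay above all siKlf4 libraries, whereas the unnumbered Scr library lay among them, so the groups overlapped. The log2 fold change of −0.52 (SE 0.24) did not pass the test over all 6 libraries (adjusted p = 0.140 in limma). It was −0.70 in the 4 numbered libraries alone, with an adjusted p of 0.0197, and −0.79 without the unnumbered Scr library, with an adjusted p of 0.0126 (limma). With all 6 libraries and a term for the unnumbered ones, Fos was also called lower (−0.52, adjusted p = 0.0315 in limma). A replicate block over the numbered pairs called it lower too. Taken by replicate number, with the unnumbered libraries set together, each siKlf4 library lay below its Scr library, although a pairing was not established. The call on Fos thus depends on how the unnumbered libraries are treated.

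Fosb, another inducible Fos gene, was at 3.57, 2.14 and 2.65 TPM under Scr and at 1.98, 1.86 and 2.66 TPM after siKlf4, and its groups overlapped (log2 fold change −0.25, 95% interval −0.69 to 0.19). Fosl2 had the narrowest interval of the 10 genes in SMCs, −0.20 to 0.10 around −0.05, at 165.6, 169.8 and 165.2 TPM with siKlf4. A change of Fosl2 by more than 0.20 in either direction thus lies outside the interval.

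None of the Jun genes passed the test in SMCs. Jun was at 61.7, 68.8 and 67.7 TPM under Scr and at 63.7, 66.7 and 62.5 TPM after siKlf4, with a 95% interval of the log2 fold change from −0.21 to 0.13. Junb, which in many promoters acts against Jun, was at 93.3, 136.6 and 131.9 TPM under Scr and at 94.9, 141.9 and 141.6 TPM after siKlf4. Jund, the most steadily expressed Jun gene, was at 102.3, 141.1 and 132.8 TPM under Scr and at 107.6, 132.5 and 141.9 TPM after siKlf4. For both genes the unnumbered libraries stood below the numbered ones under either treatment, and the Scr and siKlf4 libraries overlapped. The intervals reached from −0.42 to 0.53 for Junb and from −0.33 to 0.38 for Jund, and their estimates, 0.06 and 0.03, turned to −0.11 each without the unnumbered Scr library. Junos, an antisense transcript that overlaps Jun, fell by 0.61 in SMCs (adjusted p = 0.0337 in limma), at 2.72 to 3.99 TPM with siKlf4. Antisense reads cannot be told from those of Jun if strand was not used.

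Atf3, a stress-induced factor that pairs with Jun proteins and represses many targets, stayed at 0.845 to 2.02 TPM in all 6 SMC libraries, with overlapping groups (log2 fold change 0.25, 95% interval −0.23 to 0.73). Maff, a small MAF protein without a transactivation domain that pairs with CNC and other leucine zipper factors, was at 43.8, 66.2 and 70.3 TPM under Scr and at 64.9, 69.1 and 70.5 TPM after siKlf4. Only the unnumbered Scr library lay apart, and without it the log2 fold change moved from 0.21 to −0.0027.

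In PDGFR-β+ cells, siKlf4 raised Atf3 and lowered Egr1, Maff and Jund, while no Fos gene passed the test. Of the 13694 genes tested in PDGFR-β+ cells, 40.6% were called, 25.3% higher and 15.3% lower, so 4 of 10 is close to the background share, with 3 of the 4 calls lower. The median log2 fold change of the 10 genes was −0.12, against 0.10 over all genes tested. Scr and siKlf4 libraries did not overlap in 4 of the 10 genes, where 53.8% of all genes did not. Median-ratio scaling of the libraries moved the median of all genes from 0.097 to −0.0037 and the share of higher calls from 62.3% to 46.9%, so that shift applies to each fold change in these cells.

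Atf3 was at 3.43, 4.29 and 3.42 TPM under Scr and at 7.12, 8.88 and 7.66 TPM after siKlf4. Every siKlf4 library stood above every Scr library, with a ratio of the means of 2.12. The log2 fold change was 0.92 (SE 0.13), with an adjusted p of 0.00145 in limma, and it stayed past the threshold without each library in turn and under every alternative tried in these cells. Egr1 was at 28.5, 30.4 and 28.2 TPM under Scr and at 16.9, 18.6 and 14.5 TPM after siKlf4. Here the siKlf4 libraries lay below all Scr libraries, the opposite order to that in SMCs. Egr1 fell by 0.77 on the log2 scale (SE 0.10), with an adjusted p of 0.00111 in limma. Set side by side across the separately deposited tables, these siKlf4 levels lay within the range of Scr SMCs (12.4 to 18.9 TPM).

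Maff was at 121.0, 124.9 and 101.7 TPM under Scr and at 81.9, 90.8 and 86.8 TPM after siKlf4, so that the groups were apart by about the spread within the Scr group. Maff fell by 0.41 on the log2 scale (SE 0.094), with an adjusted p of 0.0110 in limma. Jund was at 121.8, 116.0 and 112.3 TPM under Scr and at 106.9, 98.5 and 96.7 TPM after siKlf4. The groups did not overlap, but they were close, and the log2 fold change of −0.21 (SE 0.071) passed only just (adjusted p = 0.0469 in limma). It passed without siKlf4 replicate 1 (adjusted p = 0.0408 in limma) but not without any of the other 5 libraries, where the log2 fold change was −0.18 to −0.24 and the adjusted p 0.0552 to 0.147, nor in a single fit of both cell types (adjusted p = 0.190 in limma), without the filter on low values (0.0591) or without a trend (0.0798). Jund kept its call in 5 of the 8 alternatives, with the lowest adjusted p after median-ratio scaling (0.00383 in limma). For the 4 called genes the two-sided exact permutation p was 0.1, again the smallest that the design allows.

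The other Jun genes lay lower with siKlf4 on average, without passing the test. Jun was at 39.8, 47.9 and 39.7 TPM under Scr and at 35.3, 42.5 and 37.5 TPM after siKlf4, and Junb was at 61.6, 61.7 and 54.7 TPM under Scr and at 56.6, 56.2 and 49.5 TPM after siKlf4. Both pairs of groups overlapped. The intervals were −0.39 to 0.11 for Jun and −0.34 to 0.07 for Junb. After median-ratio scaling Junb was called lower (−0.24, adjusted p = 0.0270 in limma), as it was after quantile normalization (−0.21, adjusted p = 0.0439).

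Of the Fos genes in PDGFR-β+ cells, Fosb had the largest change, from 1.01, 1.80 and 0.859 TPM under Scr to 2.55, 2.12 and 1.71 TPM with siKlf4. One siKlf4 library lay under the highest Scr library. The log2 fold change was 0.51 (SE 0.20), with an adjusted p of 0.0819 in limma, and 0.69 with an adjusted p of 0.0266 without Scr replicate 2. Fosl1 was at 35.9, 51.7 and 30.8 TPM under Scr and at 33.9, 46.4 and 36.0 TPM after siKlf4, with replicate 2 highest under both treatments. Its log2 fold change was −0.006, with a 95% interval of −0.47 to 0.46, so a change as large as that in SMCs lies outside it. Fos was at 8.87, 7.43 and 7.87 TPM under Scr and at 7.91, 7.01 and 7.13 TPM after siKlf4, and Fosl2 stayed between 156.6 and 183.3 TPM in all 6 libraries. The groups overlapped for both, with intervals of −0.37 to 0.13 for Fos and −0.09 to 0.25 for Fosl2.

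The RefSeq promoter table (GRCm38.p6) holds 8 of the 10 genes, in 10 start sites, and no entry for Fosl1 and Egr1. In the 300 bases from 250 before to 50 after each start, both strands were searched for the TRE letters TGANTCA, the CRE letters TGACGTCA, the CArG box bound by SRF, and CCNCNCCC, letters of the kind that KLF and SP proteins bind. TGACGTCA does not contain TGANTCA, and neither shares letters with the other patterns. CCNCNCCC occurred in 7 of the 8 genes (all but Jund) and in 49.5% of the 32851 promoters of the table. A gene with several starts was counted if any of them matched, whereas the shares count each promoter on its own. The RefSeq start of Jund lies 1210 bases upstream of the nearest GENCODE M21 start of the gene, so its window may not be the promoter used. TGACGTCA occurred in Maff alone, at 1 of its starts, against 1.79% of all promoters. Neither TGANTCA (7.81% of all) nor the CArG box (1.63% of all) occurred in any of the 8 within this window. Sequence is shown for Atf3 and Maff, which moved in opposite directions in the same PDGFR-β+ libraries, as the 250 bases before the start, 5′ to 3′ on the gene's strand, with the letters of the 4 patterns in capitals. Atf3 is read from the minus strand of chr1:191183334-191183583, and Maff from the plus strand of chr15:79346371-79346620 (start 1) and chr15:79347270-79347519 (start 2). A further Maff start, at chr15:79348402, had 2 matches of CCNCNCCC and none of the other patterns, and is not shown.

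Atf3: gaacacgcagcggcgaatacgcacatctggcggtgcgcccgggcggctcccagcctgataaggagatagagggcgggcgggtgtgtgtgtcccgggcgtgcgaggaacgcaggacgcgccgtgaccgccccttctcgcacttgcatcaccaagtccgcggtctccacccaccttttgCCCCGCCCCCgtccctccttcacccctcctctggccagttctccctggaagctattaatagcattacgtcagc

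Maff start 1: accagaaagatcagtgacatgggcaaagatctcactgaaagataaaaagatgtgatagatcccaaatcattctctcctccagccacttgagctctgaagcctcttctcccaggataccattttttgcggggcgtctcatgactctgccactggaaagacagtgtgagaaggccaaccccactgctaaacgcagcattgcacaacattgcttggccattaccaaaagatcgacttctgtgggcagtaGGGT

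Maff start 2: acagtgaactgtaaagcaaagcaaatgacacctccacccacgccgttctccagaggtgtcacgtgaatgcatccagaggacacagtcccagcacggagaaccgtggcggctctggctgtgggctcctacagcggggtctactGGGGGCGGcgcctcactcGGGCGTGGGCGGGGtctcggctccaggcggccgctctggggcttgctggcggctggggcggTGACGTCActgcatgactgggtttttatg

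The capitals of Atf3 are 2 overlapping matches of CCNCNCCC, between 73 and 64 bases before its start. Start 1 of Maff has a match that runs across the start site, of which only the bases before the start are printed, and start 2 has TGACGTCA from 29 to 22 bases before the start, with 3 matches of CCNCNCCC further upstream. The gene that rose and the gene that fell thus both hold the KLF-type letters, and these are present in about as many promoters as not. The matches describe the sequence only. The Atf3 start shown lies within the annotated gene, which on its minus strand begins at chr1:191218039. Which start of Atf3 or Maff was used in these cells cannot be read from gene-level values.

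For Egr1, Fosl1 and Maff the siKlf4 effect in SMCs was not that in PDGFR-β+ cells. The difference of the log2 fold changes (SMCs minus PDGFR-β+ cells) was tested as the interaction term of a limma fit over the 12 libraries. Among the 13032 genes tested, 33% were called, 14.5% higher in SMCs and 18.5% lower, against 3 higher and none lower of the 10. After median-ratio scaling the share of higher among these calls went from 43.9% to 54.7%. For Egr1 the difference was 1.71 (SE 0.21, 95% interval 1.25 to 2.18), with an adjusted p of 1.33e-04 in limma. It was the only gene of the 10 past the threshold in both cell types, and the directions were opposite. For Fosl1 the difference was 0.93 (95% interval 0.31 to 1.55), with an adjusted p of 0.0258 in limma, and for Maff it was 0.62 (95% interval 0.16 to 1.08), with an adjusted p of 0.0404 in limma. The calls on Fosl1 and Maff depended on which libraries entered. Fosl1 lost its call without the unnumbered Scr library, siKlf4 replicate 2 or siKlf4 replicate 3 of the SMCs, and without siKlf4 replicate 1 or 3 of the PDGFR-β+ cells, with differences of 0.75 to 0.90 and adjusted p-values of 0.0534 to 0.0610 in limma. Maff kept its call only without Scr replicate 3 of the PDGFR-β+ cells or one of the 3 Scr libraries of the SMCs, and without each of the other 8 libraries its difference was 0.56 to 0.65, with adjusted p-values of 0.0517 to 0.0847 in limma. Without the unnumbered Scr library of the SMCs the difference of Maff was 0.41 (adjusted p = 0.0294 in limma). The call on Maff was also lost without the filter on low values (0.0708), after quantile normalization (0.0565) and without a trend (0.0503), whereas the call on Egr1 held without each library in turn.

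Atf3, called in PDGFR-β+ cells alone, was not shown to differ between the cell types. Its difference was −0.66 (95% interval −1.19 to −0.14), with an adjusted p of 0.0540 in limma, and that of Fosb was −0.76 (−1.37 to −0.14), with an adjusted p of 0.0578 in limma. Without Scr replicate 3 of the SMCs, the library in which Atf3 was lowest (0.845 TPM), the difference of Atf3 was −0.87, with an adjusted p of 0.00637 in limma, and without Scr replicate 2 of the PDGFR-β+ cells it was −0.75, with an adjusted p of 0.0475. Fosb passed without Scr replicate 2 of the PDGFR-β+ cells (−0.94, adjusted p = 0.0214 in limma) or of the SMCs (−0.88, adjusted p = 0.0415). For Fos the difference was −0.41, with an interval from −1.01 to 0.20, and −0.58 with an adjusted p of 0.0250 in limma when only the numbered SMC libraries entered, or −0.68 with an adjusted p of 0.0141 without the unnumbered Scr library. For Jun, Junb, Jund and Fosl2 the differences lay between −0.13 and 0.24, with adjusted p-values of 0.316 to 0.584 in limma.

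**Figure D2:**
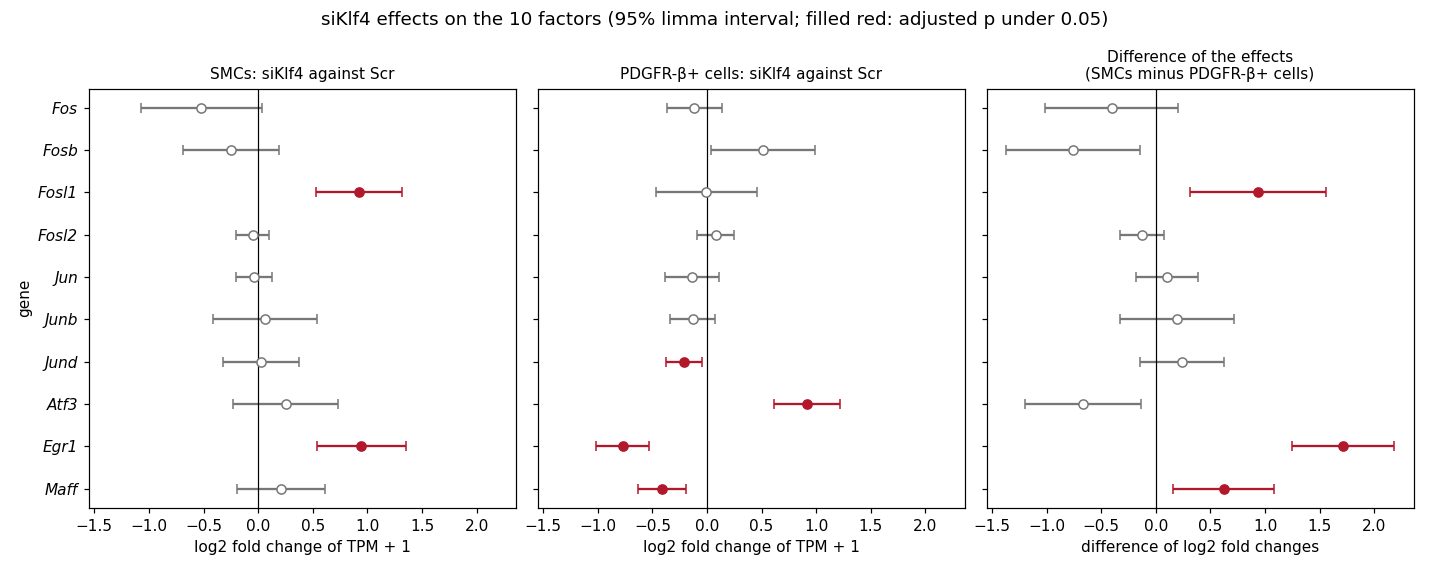
Log2 fold change of TPM + 1 (siKlf4 against Scr) of the 10 genes in SMCs (left) and PDGFR-β+ cells (middle), and the difference of the 2 effects (right), each with its 95% interval from limma. Filled red points have an adjusted p under 0.05. Egr1 lies at 0.94 in SMCs and at −0.77 in PDGFR-β+ cells, and the points of Fosl2 and Jun lie near 0 in both.

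Because TPM is per length, the levels within each family can be summed and compared within a library. The summed Fos family stayed nearly level in both cell types: 224 ± 3.9 TPM in Scr SMCs and 226 ± 8.4 TPM in siKlf4 SMCs, and 209 ± 11.6 and 217 ± 10.8 TPM in PDGFR-β+ cells (mean ± SD, n = 3). Fosl2 made up the bulk of it, with a mean share between 73.8% and 77.8% in the 4 groups. Among the rest, the mean share of Fosl1 in the SMC family sum was 8.80% ± 1.77 with Scr and 16.8% ± 1.2 with siKlf4, while that of Fos was 12.8% ± 3.9 and 8.44% ± 0.88. Scr SMCs thus held more Fos than Fosl1 transcript on average and siKlf4 SMCs more Fosl1 than Fos. In PDGFR-β+ cells Fosl1 held 18.8% ± 4.2 and 17.9% ± 3.2 and Fos 3.87% ± 0.43 and 3.38% ± 0.14. The Fosl1 share of siKlf4 SMCs was accordingly near that of PDGFR-β+ cells under either treatment, whereas their Fos share was not.

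The summed Jun family was 312 ± 48 TPM in Scr SMCs and 318 ± 45 TPM in siKlf4 SMCs, where the unnumbered libraries were lowest under both treatments. In PDGFR-β+ cells it was 219 ± 10.3 TPM under Scr and 193 ± 8.3 TPM after siKlf4, without overlap. Jund held the largest mean share in all 4 groups, 40.1% in both groups of SMCs, 53.4% in Scr PDGFR-β+ cells and 52.1% in siKlf4 PDGFR-β+ cells, but in SMCs Junb was close to it (38.5% and 39.4%). The ratio of summed Fos to summed Jun transcripts was 0.730 ± 0.11 and 0.720 ± 0.087 in SMCs. In PDGFR-β+ cells it was 0.954 ± 0.015 with Scr and 1.12 ± 0.020 with siKlf4, also without overlap. These sums are descriptions with no test, and they say nothing of protein.

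**Figure D3:**
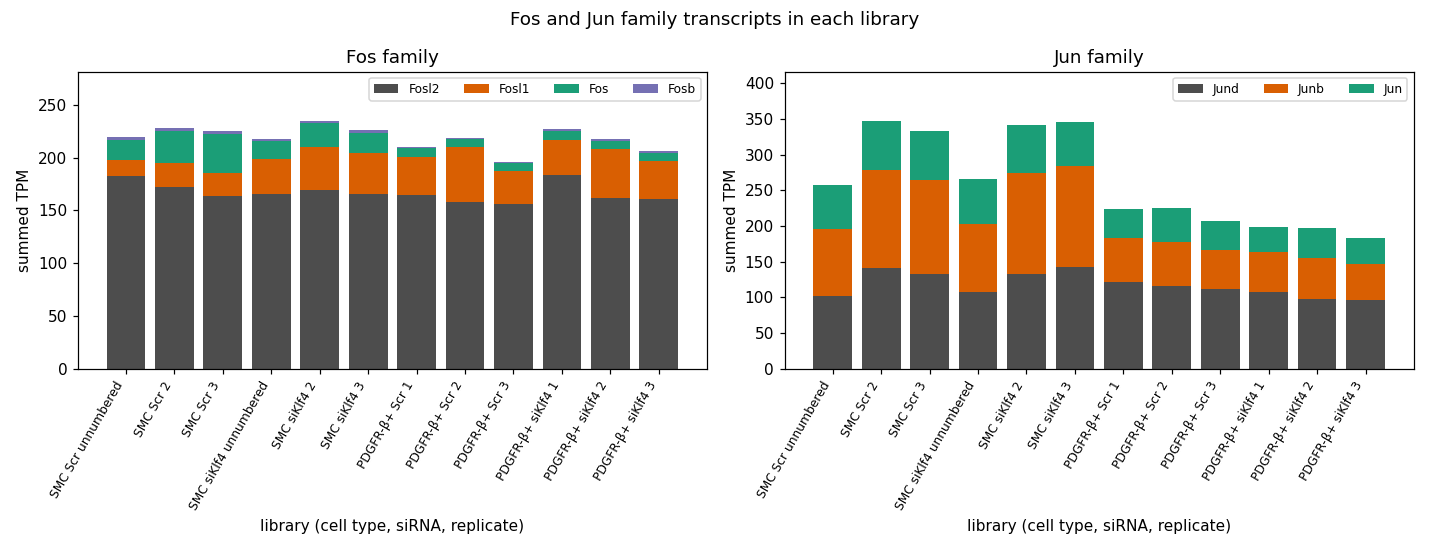
Summed TPM of the Fos family (left) and the Jun family (right) in each of the 12 libraries, stacked by gene and starting at 0. Fosl2 is the largest block of every Fos bar, the Fosl1 block of SMCs is larger with siKlf4, and the Jun bars of the 2 unnumbered SMC libraries are lower than those of the 4 numbered ones.

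Of the other leucine zipper partners, Maf fell in SMCs and Jdp2 and Atf2 fell in PDGFR-β+ cells. The list of 10 (Batf genes, Jdp2, Atf2, Atf7 and large and small MAF genes) had 8 members tested in SMCs, with none higher and 1 lower (28.5% of all genes called), and 7 in PDGFR-β+ cells, with none higher and 2 lower (40.6% of all genes called), which are too few genes to set apart from these shares. In SMCs Maf, a large MAF factor, fell by 0.71 (adjusted p = 0.0269 in limma), from 58.9 to 89.0 TPM to 36.7 to 51.3 TPM. In PDGFR-β+ cells Jdp2, a repressor that pairs with Jun, fell by 0.70 (adjusted p = 0.00208), from 42.8 to 46.5 TPM to 23.5 to 31.1 TPM, and Atf2, a Jun partner at CRE sites, fell by 0.33 (adjusted p = 0.0250). The effect on Jdp2 differed between the cell types by 0.69 (adjusted p = 0.00214 in limma). Mafg, a small MAF gene like Maff, did not pass in either cell type, while its effects differed by −0.39 (adjusted p = 0.0462 in limma). The call on this difference was lost after median-ratio scaling and without a trend. It was also lost without some single libraries, such as Scr replicate 2 of the PDGFR-β+ cells or of the SMCs.

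Among the other immediate early genes, more rose than fell in both cell types. Of 26 genes on this list, 23 were tested in SMCs, of which 10 were higher, 1 lower and 12 not called, with a median log2 fold change of 0.45 against 0.02 over all genes. In PDGFR-β+ cells 24 were tested, of which 12 were higher, 5 lower and 7 not called, with a median of 0.35 against 0.10 over all genes. Over all genes 28.5% were called in SMCs and 40.6% in PDGFR-β+ cells, so a larger share of this list was called in both. The list was not tested as a set. Over all genes 54.6% of the calls in SMCs and 62.3% of those in PDGFR-β+ cells were higher. The balance of higher and lower calls of the list in PDGFR-β+ cells was thus close to that of all genes. In the numbered SMC libraries alone 14 were higher and none was lower. Higher in both cell types were Nr4a1, an orphan nuclear receptor (1.15 in SMCs and 0.88 in PDGFR-β+ cells), Plk2 (1.26 and 0.63), Plk3 (0.92 and 0.58), Srf, the factor that binds the CArG box (0.97 and 0.70), Ier5 (0.77 and 0.71), Btg2, an antiproliferative p53 target (0.99 and 1.96), and Arc (1.30 and 1.25, at under 8 TPM). Rhob fell in both, by 0.25 (adjusted p = 0.0447 in limma) and 0.42 (adjusted p = 0.00719 in limma). Its SMC call was lost without the filter on low values, without a trend and in the numbered libraries alone. With 1 SMC library left out, a gene of this list was called lower only without Scr replicate 3. In the PDGFR-β+ libraries in which Egr1 fell, Nr4a1 and Srf therefore rose.

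A smaller set of immediate early genes went the way of Egr1. Ctgf and Cyr61, secreted matricellular proteins that respond to YAP and to SRF, rose in SMCs (1.26 and 0.83) and fell in PDGFR-β+ cells (−0.27 and −0.34). Their effects differed by 1.52 and 1.17 (adjusted p = 0.00222 and 3e-04 in limma). Ier2 rose in SMCs alone (0.88), with a difference of 1.05 (adjusted p = 0.00473), and Klf10 (−0.97) and Dusp1 (−0.42), a MAP kinase phosphatase, fell in PDGFR-β+ cells alone, with differences of 1.27 and 0.65 (adjusted p = 0.00155 and 0.00952 in limma). In the other direction, the effects on Nr4a2 and Btg2 were larger in PDGFR-β+ cells, with differences of −1.11 and −0.97 (adjusted p = 0.00490 and 5.3e-04 in limma). In all, 6 of the 23 genes tested for a difference were higher in SMCs and 2 were lower, against 14.5% and 18.5% of all genes. The list's median difference was 0.12 and that of all genes was −0.08.

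Of the 17 kinases and factors upstream of these genes, 2 were higher in SMCs and none was lower, and 5 were higher and 3 lower in PDGFR-β+ cells. All genes were called at 28.5% and 40.6%, so the count in SMCs was below the background and that in PDGFR-β+ cells near it. With a term for the unnumbered SMC libraries the SMC count was 6 higher, while 40.1% of all genes were called. Mapk8, which encodes the Jun kinase JNK1, rose in both (0.56 in SMCs, adjusted p = 0.0249, and 0.68 in PDGFR-β+ cells, adjusted p = 0.0055, limma). Map2k1, the ERK kinase MEK1, rose in SMCs alone, by 0.57 (adjusted p = 0.00885), and its effect differed between the cell types by 0.57 (adjusted p = 0.00697 in limma). Of the ternary complex factors that bind SRF at the Fos and Egr1 genes, Elk1 (−0.31) and Elk3 (−0.59) fell in PDGFR-β+ cells while Elk4 rose (0.60), and all 3 differed between the cell types (0.41, 0.90 and −0.65). The SRF coactivators Mkl1 (0.81) and Mkl2 (0.33) rose in PDGFR-β+ cells, and Map2k4, a JNK kinase, rose there by 0.54.

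The textbook AP-1 target genes moved apart in the 2 cell types. Of 18 genes, 17 were tested in SMCs, with 10 higher, 2 lower and 5 not called (median log2 fold change 0.40, against 0.02 over all genes), and 16 in PDGFR-β+ cells, with 2 higher, 8 lower and 6 not called (median −0.37, against 0.10 over all genes). Over all genes 15.6% were called higher and 12.9% lower in SMCs, and 25.3% and 15.3% in PDGFR-β+ cells. The list, which holds Ccl2 and Tgfb1, was chosen with earlier results of these data known, and it was not tested as a set. In PDGFR-β+ cells the count was 1 higher and 9 lower once the libraries were scaled by median ratios. There 8 were lower whichever library was left out, while 1 was higher without Scr replicate 1 or 3 or siKlf4 replicate 2 or 3, and 3 without Scr replicate 2. The 4 numbered SMC libraries gave 10 and 2, as all 6 did, and without siKlf4 replicate 2 of the SMCs 6 were higher and 2 lower. Of the 16 genes tested for a difference, 9 were higher in SMCs and none was lower, with a median of 0.96 against −0.08 over all genes. Over all genes 14.5% were called higher in this test and 18.5% lower. With the numbered SMC libraries alone, 9 were higher and 1 was lower.

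The largest changes of this list in SMCs were those of Mmp10, a stromelysin, from 4.59 to 9.51 TPM under Scr to 40.5 to 100.5 TPM with siKlf4 (log2 fold change 3.01), Ptgs2, the inducible cyclooxygenase, from 18.5 to 42.0 TPM to 142.5 to 321.0 TPM (2.88), and the chemokine gene Ccl2, from 25.2 to 107.2 TPM to 212.9 to 540.7 TPM (2.63). In each the unnumbered libraries were the lowest of their group and the groups did not overlap. None of the 3 rose in PDGFR-β+ cells, where Ptgs2 fell by 0.55 and Mmp10 and Ccl2 were not called. In PDGFR-β+ cells the largest falls were those of Ccnd1, cyclin D1, by 1.81 (548.2 to 565.5 TPM under Scr, 134.0 to 179.6 TPM after siKlf4), and of the collagenase gene Mmp13, by 1.75. Tgfb1, Plaur, the urokinase receptor, and Cd44 changed in opposite directions, up in SMCs (0.93, 0.84 and 0.41) and down in PDGFR-β+ cells (−0.85, −0.98 and −0.54), as did Ccnd1 (0.40 in SMCs). Plau, the urokinase gene, and Spp1 rose in both, and Mmp3 and Timp1 fell in both, so the targets did not move as 1 block.

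Of the 6 stress response genes linked to Atf3, 2 were called in each cell type, against 28.5% of all genes in SMCs and 40.6% in PDGFR-β+ cells. Ddit3, the CHOP gene, and Sesn2 rose in PDGFR-β+ cells, by 0.87 and 0.85 (adjusted p = 1.28e-04 and 1.07e-04 in limma), Ddit3 from 146.1 to 168.0 TPM to 284.6 to 300.7 TPM. In SMCs Ddit3 rose by 0.26 (adjusted p = 0.0388) and Asns fell by 0.23 (adjusted p = 0.0464, both limma). Both SMC calls were lost without the filter on low values and without a trend. With 1 SMC library left out, no gene of the list was called higher. One was called lower only without the unnumbered siKlf4 library. The effects on Ddit3 and Sesn2 differed between the cell types by −0.61 and −0.73 (adjusted p = 7.98e-04 and 2.08e-04 in limma). Atf4, Trib3 and Chac1 did not pass in either cell type. Once scaled by median ratios, 2 of the 6 were higher and 2 lower in PDGFR-β+ cells. Atf3 therefore rose in the same libraries as Ddit3 and Sesn2, while Trib3, Chac1 and Asns did not pass there.

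**Figure D4:**
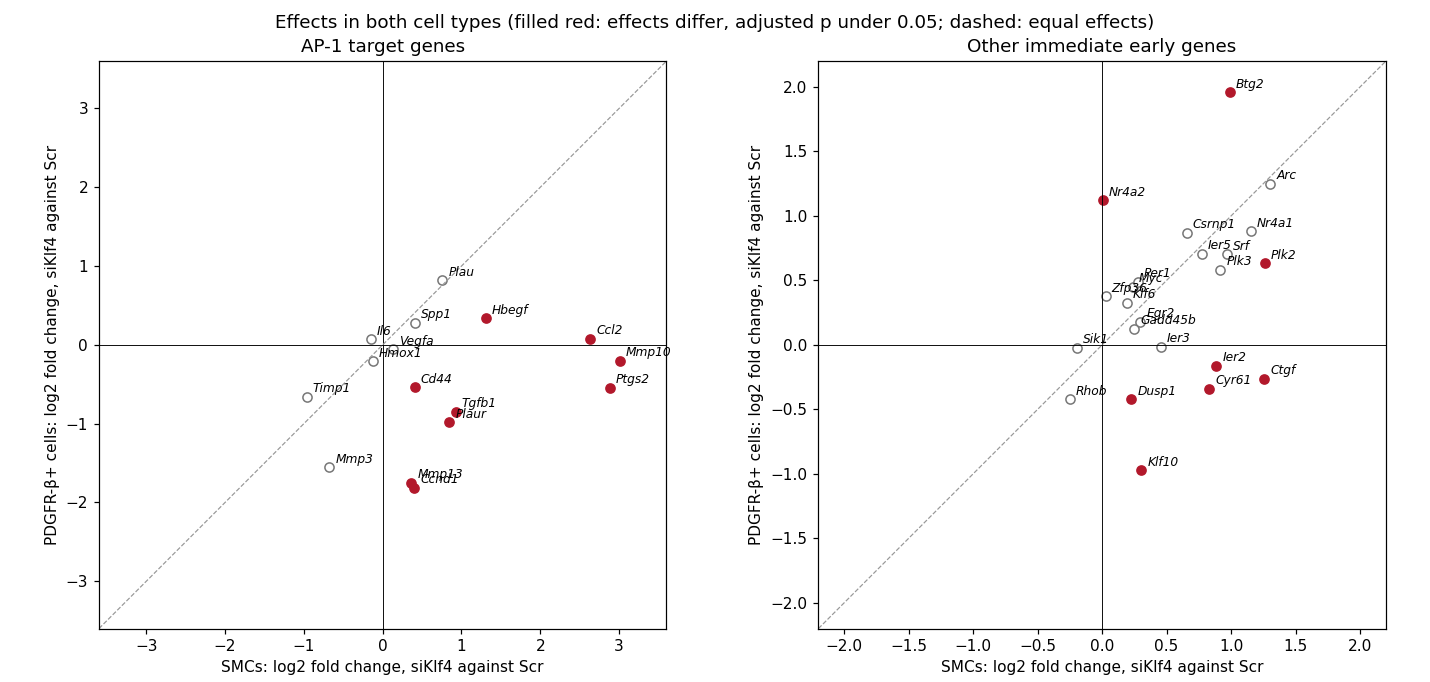
Log2 fold change (siKlf4 against Scr) in SMCs (x axis) and PDGFR-β+ cells (y axis) of the AP-1 target genes (left) and the other immediate early genes (right) that were tested in both. Filled red points have effects that differ between the cell types (adjusted p under 0.05), and the dashed line marks equal effects. The 9 filled points of the left panel all lie below the line, with Ptgs2, Mmp10 and Ccl2 farthest to the right, and Btg2 and Nr4a2 are the filled points above the line in the right panel.

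The genes whose pattern was most like that of Egr1 were sought over the 12 libraries, after the mean of each cell type was subtracted, among 13031 genes. They were Csf1, the macrophage growth factor gene (Pearson r = 0.98), Tgfb1 (r = 0.98) and Ncam1 (r = 0.98), as a description with no test, since the libraries share the treatment. Csf1 changed by 0.70 in SMCs and −0.57 in PDGFR-β+ cells, and Ncam1 by 0.87 and −0.66, each in the direction of Egr1. The genes were chosen by this correlation, so the shared direction is no separate result.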

How the data were processed

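Bulk RNA-seq of 12 libraries, 3 per group, was analysed. Per the study's methods, libraries were made strand-specific after poly-A selection, reads were trimmed and aligned to mm10 with HISAT2 and GENCODE annotation, and abundance was estimated with StringTie and ballgown. The TPM values that the authors deposited fill a separate table for each cell type, with every replicate in a column of its own, and the methods call the replicates independent experiments. The study's DESeq2 tests used counts, which were not used here. TPM keeps no depth, so precision rests on the libraries alone. Columns of no sample or group numbered 0.

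Values were fitted as log2(TPM + 1) with limma 3.58.1 in R 4.3.3 (eBayes with a trend) after dropping genes whose mean in the 6 libraries was under 1 TPM, two-sided, with Benjamini-Hochberg adjustment over all genes tested and a threshold of 0.05. The interaction was fitted over 12 libraries, for genes at 1 TPM or more in both cell types. Single values also had an exact permutation test, whose smallest p is 0.1. The procedure was tested on simulated data. The members and gene lists were chosen with earlier results of these data known, and no set was tested. Named were the members, Klf4, list genes past the threshold or defining their list, and the 3 genes most correlated with any member called in both cell types. Map2k7 has 2 identifiers, of which the one with the higher mean was used.

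Alternatives were a pseudocount of 0.1, no filter, a minimum of 5 TPM, median-ratio or quantile scaling, eBayes without a trend, a single fit of both cell types, a replicate block, each library left out, and, for the SMCs, a term for the unnumbered libraries or the numbered libraries alone. The last 2 were applied to the interaction after the data were seen.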

Additional observations from a re-analysis of the deposited data

Results flagged for a closer look

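The siKlf4 effect differed between SMCs and PDGFR-β+ cells, by the interaction term of limma over 12 libraries, for 3 of the 10 genes. Over all 13032 genes tested 33% were called, so this count is no excess. For Egr1 the difference was 1.71 on the log2 scale (adjusted p = 1.33e-04), and the siKlf4 libraries lay above all Scr libraries in SMCs and below all of them in PDGFR-β+ cells. For Fosl1 it was 0.93 (adjusted p = 0.0258), with a called rise in SMCs (0.93) and an estimate of −0.006 in PDGFR-β+ cells. For Maff it was 0.62 (adjusted p = 0.0404), with a fall in PDGFR-β+ cells, while in SMCs the unnumbered Scr library was the lowest (43.8 TPM), and without it the difference was 0.41 (adjusted p = 0.0294). The Maff call was lost without the filter on low values, after quantile normalization and without a trend (adjusted p = 0.0708, 0.0565 and 0.0503). With 1 library left out, the call held in 7 of 12 fits for Fosl1 and in 4 of 12 for Maff. No group had more than 3 libraries, so single libraries were not tested for standing apart.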

How the results depend on the processing

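No call on a single gene turned direction under any alternative. The estimates that changed sign were all uncalled: Jund in SMCs under quantile normalization (−0.0097), Fosl2 in PDGFR-β+ cells under median-ratio scaling (−0.033), and, with 1 library left out, Junb (−0.11 to 0.25), Jund (−0.11 to 0.14) and Maff (−0.0027 to 0.33) in SMCs and Fosl1 (−0.16 to 0.20) in PDGFR-β+ cells. Of 556 single-gene fits, 503 kept direction and side of the threshold, 17 passed it newly, 24 lost it and 12 changed sign. Fos in SMCs was called lower (1 gene in place of 0) in the numbered libraries, with a term for the unnumbered ones, and with a replicate block (−0.70, adjusted p = 0.0449 in limma), and with 1 library left out the count was 0 to 1. Leaving out 1 library gave 1157 to 2037 genes higher and 1044 to 1578 lower in SMCs, against 2136 and 1774, with the fewest without siKlf4 replicate 2 (higher) and siKlf4 replicate 3 (lower). In PDGFR-β+ cells the members called higher were 1 to 2. For the difference between cell types, the members called lower were 2 without a trend (Fosb and Atf3) and 1 with the replicate block, with the term and in the numbered libraries, and 0 to 2 with 1 library left out, and the members called higher were 1 to 3. Jund in PDGFR-β+ cells lost its call without the filter on low values, without a trend and in the single fit of both cell types (adjusted p = 0.0591, 0.0798 and 0.190 in limma). It kept the call in 5 of the 8 alternatives, with the lowest adjusted p after median-ratio scaling (0.00383 in limma). The replicate numbers did not pair the PDGFR-β+ libraries (r of same-numbered deviations −0.016 to 0.073). In SMCs r was 0.185 and 0.199 for the numbered pairs and 0.36 for the unnumbered libraries, against −0.22 to 0.050 for the other combinations, so each library correlated best with that of its own number, as a hint from the data. With 2 numbered pairs a pairing was not established, and the replicate block was fitted over those pairs alone. The cause of each shift was not tested.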
